A study of Mus musculus with 2 samples.

Results

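The genes for keratins and keratin-associated proteins were examined for their place in the chromatin loops of mouse embryonic stem cells. Members were the protein-coding genes of chromosomes 1 to 19 whose symbol is Krt or Krtap followed by a digit, which gave 109 of 20665 genes, 53 keratins and 56 keratin-associated proteins. Grouping members with gaps under 500 kb placed them in 6 clusters on 6 chromosomes, which together cover 2.93 Mb. Of the 4858 loops of chromosomes 1 to 19, 15 had an anchor in or within 100 kb of a cluster or enclosed one. The rule used symbols and positions only, and no loop value, but members and lists were chosen with earlier results of these data known.

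Keratins are the intermediate filament proteins of epithelial cells. Each filament is built from pairs of a type I and a type II keratin, and each epithelium uses its own pairs: Krt8 with Krt18 in simple epithelia and the early embryo, Krt5 with Krt14 in the basal epidermis, Krt1 with Krt10 in the upper epidermis, and hair keratins in the hair shaft. Keratin-associated proteins form the sulphur-rich or glycine and tyrosine-rich matrix that binds hair keratins together. In mammals most type II genes lie in one cluster and most type I genes in another, with Krt18, a type I gene, placed beside Krt8 at the edge of the type II cluster.

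The contacts came from Micro-C, in which chromatin is fixed with disuccinimidyl glutarate (DSG) and formaldehyde and cut with micrococcal nuclease before neighbouring ends are joined and sequenced. The cells were V6.5, a male mouse embryonic stem cell line, wild type and grown on gelatin. The 2 samples both received siGLO, a transfection control reagent, at 50 nM and were collected 48 h later, so there is 1 group, called siControl. The labels do not say whether the samples were separate cultures, and no untransfected or depleted group was analysed here. The deposited data are 1 loop list for the group with no value per sample, so the spread between samples is unknown, no difference could be tested and the read depth behind a loop is unknown. Embryonic stem cells are not keratinocytes, and no expression level was measured, so nothing below says which keratins these cells used.

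A loop joins a pair of anchors, each 1 pixel of the contact map of 5, 10 or 25 kb. Its span is the distance between them, and its peak score is the authors' value with no unit, taken here, from the layout of the list, as how far the pixel stands out from its surroundings. Percentiles of scores are among loops of the same pixel size, since scores of different pixel sizes are on different levels. A gene was counted at an anchor when the first or last base of its record lay inside one, and as lying between anchors when all of it lay between the anchors of a loop. Anchors that share a base were merged for counts per Mb, while anchors on adjoining pixels were kept apart.

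The members with an end at a loop anchor were all keratins. A difference between keratins and keratin-associated proteins was not tested, and the intervals of their shares overlap. A gene end lay at an anchor for 5 of the 109 members, 4.59% (exact 95% interval 1.51 to 10.4%, counting error only), where the share over all protein-coding genes was 9.19%, which lies inside that interval. Among the 53 keratins alone the share was 9.43% (3.13 to 20.7%), near that of all genes. The 5 genes were Krt84 and Krt73 on chromosome 15 and Krt33a, Krt33b and Krt31 on chromosome 11. They lay at anchors of 4 loops, with Krt33a and Krt33b at the same anchor. All 5 belong to the list of 24 hair and inner root sheath keratins (20.8%, exact 95% interval 7.13 to 42.2%), which by its range of symbols also takes in Krt76, known from oral epithelium. The interval of this list also includes the 9.19% of all protein-coding genes. None of the 56 keratin-associated genes had an end at an anchor, which allows a share of up to 5.36% by a limit of 3 counts. Nor did any of 16 genes listed here as epidermal keratins, Krt23 among them (up to 18.75%), or of 5 simple epithelial keratins (up to 60%). Genes of a cluster share anchors and are not independent, so these intervals are narrower than the data allow.

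Counting any overlap of at least 1 bp added Krt78 and gave 6 of 109 members, 5.50%, against 18.1% of all protein-coding genes. Longer records overlap anchors more readily, and this comparison was not matched for gene length. The start of the gene, known for 87 members from the promoter table, lay at an anchor for 3 of these 87 (Krt31, Krt84 and Krt73), against 5.26% of all genes with a known start. For Krt33b the end at the anchor was the 3′ end of the gene, and Krt33a, which has no entry in that table, lay wholly inside the anchor, its start included.

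The members, like protein-coding genes as a whole, lay between anchors more often than at them. Of 109 members, 92 (84.4%) lay between the anchors of at least 1 loop, where the share of all protein-coding genes was 33.0%. With loops of 1000 kb or less the count was 69 (63.3%), against 27.5%. With loops of 100 kb or less it was 2 (1.83%), Krt8 and Krt18, against 1.05%. These counts rest on few loops: all 24 members of chromosome 16 were placed by a single loop of 2800 kb, of which 23 had no narrower one, and 26 members of chromosome 11 by a loop of 550 kb. All loops over these 23 and 26 members are of 25 kb pixels. With 5 and 10 kb pixels only, at least these members would lie between no anchors, so the shares would be much lower. The shares were not recomputed that way. Short records also fit between anchors more readily, and the shares were not matched for gene length.

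The type II cluster, 684 kb on chromosome 15 from Krt80 to Krt18 (chr15:101348315-102032026, mm10), held all 26 of its keratins within loops. It holds 1 other protein-coding gene, Gm5414. Of 16 members with a known strand, 14 are read from the minus strand and 2, Krt7 and Krt18, from the plus strand. The cluster held 5 merged anchors, or 7.31 per Mb (exact 95% Poisson interval 2.37 to 17.1), where chromosomes 1 to 19 held 3.48 per Mb. The interval includes that average.

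The widest loop enclosed the whole cluster. It spanned 740 kb from chr15:101320001-101330000 to chr15:102060001-102070000, so both anchors lay outside the genes, with a peak score of 3.42 at percentile 21.5. A second loop of 640 kb began on the adjoining pixel, chr15:101330001-101340000, 8.32 kb below Krt80, a keratin of stratified epithelia. It ended at chr15:101970001-101980000 and held 23 members from Krt80 to Krt79. Its peak score was 4.49, at percentile 70.1. The 3 members left out by the second loop and held by the first were Krt78, Krt8 and Krt18.

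Within the cluster, both loops that began at a gene ended in the record of Krt78. The loop from Krt84, a hair keratin, spanned 440 kb from chr15:101530001-101540000 to the same anchor as the 640 kb loop, chr15:101970001-101980000, with a peak score of 4.42 at percentile 67.6. It held 15 members from Krt82 to Krt79, among them Krt5, the type II keratin of the basal epidermis, and Krt6a and Krt6b, known from wounded and hair follicle epithelium. The loop from Krt73, a keratin of the inner root sheath, spanned 160 kb from chr15:101800001-101810000 to chr15:101960001-101970000, with a peak score of 3.52 at percentile 26.9. It held 6 members, namely Krt2, Krt1, Krt77, Krt76, Krt4 and Krt79. Krt1 and Krt2 are keratins of the upper epidermis, and Krt4 is known from the lining of the oesophagus.

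The RefSeq gene table gives Krt78 a record of chr15:101946001-101996624, which spans 3 of the 5 anchors of the cluster. Neither end of it lies in an anchor, and the nearer end was 1.62 kb away. Krt5 lay 87.1 kb from the nearest anchor and Krt1 lay 35.4 kb from it. Krt7, a keratin of simple and glandular epithelia, lay 72.4 kb from one.

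**Figure D1:**
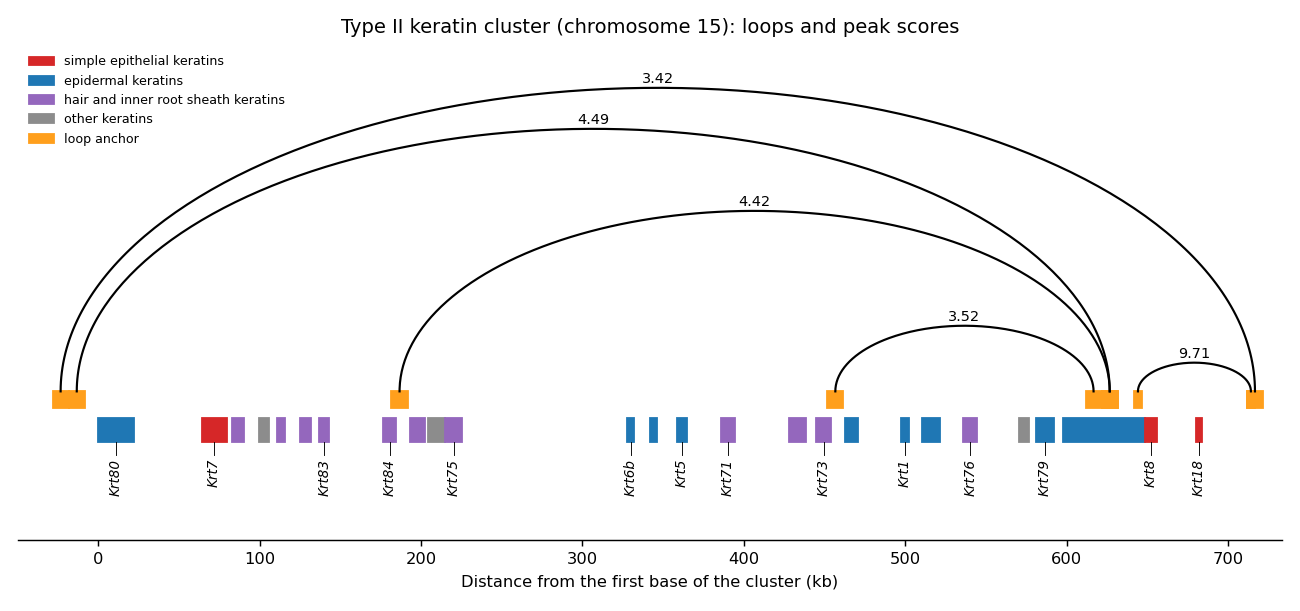
Loops of the type II keratin cluster on chromosome 15, with position in kb from the first base of the cluster on the horizontal axis, genes as boxes coloured by list, anchors as orange boxes, and each loop as an arc labelled with its peak score (arc height follows span). The 70 kb loop around Krt8 and Krt18, of 5 kb pixels, has the score 9.71. The other 4 loops, all of 10 kb pixels, where scores are on another level, lie between 3.42 and 4.49.

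The pair of simple epithelial keratins stood in a loop of their own. It spanned 70 kb at 5 kb pixels, from chr15:101990001-101995000 to chr15:102060001-102065000, and Krt8 and Krt18 were the only protein-coding genes between its anchors. Its peak score of 9.71 was the highest of the 15 loops and ranked 18 of the 1265 loops of 5 kb pixels, at percentile 98.6. Among the 98 loops of that pixel size with a span of 80 to 125% of its own, the median score was 4.39 and the loop stood at percentile 98.5. The deposited value of its peak pixel was 7.57, where the median of those 98 loops was 4.47, at percentile 99.5. Its outer anchor shares its first 5 kb with the outer anchor of the 740 kb loop.

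Neither gene of the pair had an end at an anchor. Krt8 lay 1.71 kb above the inner anchor and Krt18 lay 28.0 kb below the outer one. The inner anchor fell inside the record of Krt78, between the ends of Krt79 (49.7 kb below) and Krt8. The loop was noticed for its score in this list, so its rank is a description and its value in each of the 2 samples is not known.

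**Figure D2:**
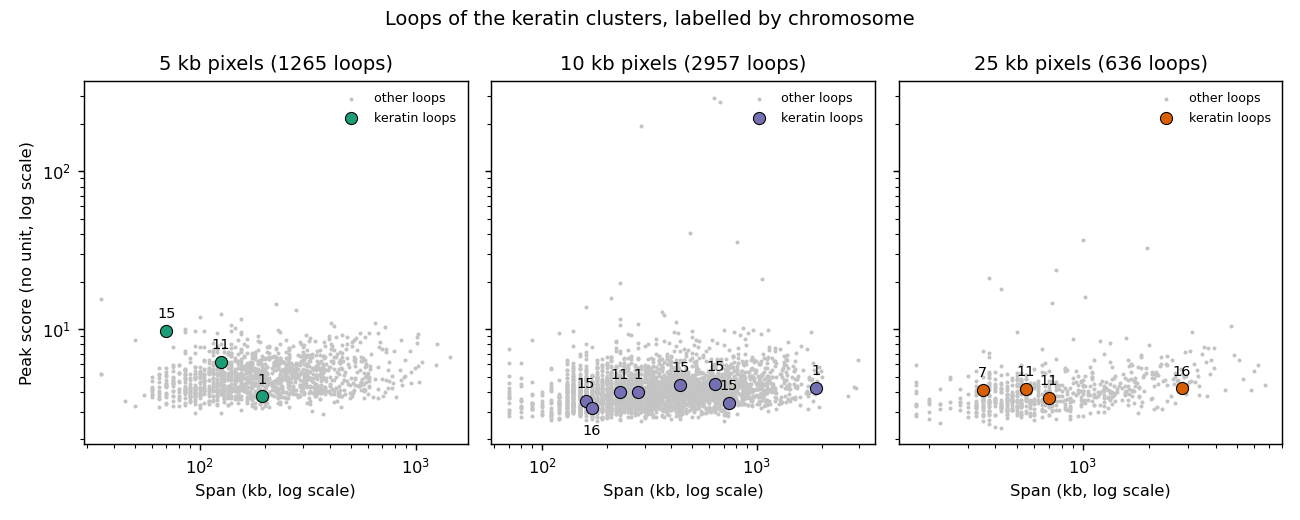
Peak score (no unit, log scale) against span (kb, log scale) in 3 panels by pixel size, with the loops of chromosomes 1 to 19 in grey and the 15 loops that touch a keratin cluster as large circles labelled with the chromosome. The loop of chromosome 15 at 70 kb and score 9.71 ranks 18 of 1265 loops of 5 kb pixels, while the loops of 10 and 25 kb pixels lie within the grey cloud, with scores from 3.14 to 4.49.

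The promoters of the 3 members with an entry in the promoter table whose start lay at an anchor are shown with those of Krt8 and Krt18, the pair inside the 70 kb loop, which were added after their loop was seen. Each run is the 250 bases before the annotated start from the RefSeq table of GRCm38.p6, 5′ to 3′ on the gene's own strand. Capitals mark bases that match TATAAA on either strand. The runs are chr11:100050552-100050801 (minus strand) for Krt31, chr15:101532821-101533070 (minus) for Krt84, chr15:101802361-101802610 (minus) for Krt73, chr15:102004343-102004592 (minus) for Krt8 and chr15:102027966-102028215 (plus) for Krt18.
Krt31: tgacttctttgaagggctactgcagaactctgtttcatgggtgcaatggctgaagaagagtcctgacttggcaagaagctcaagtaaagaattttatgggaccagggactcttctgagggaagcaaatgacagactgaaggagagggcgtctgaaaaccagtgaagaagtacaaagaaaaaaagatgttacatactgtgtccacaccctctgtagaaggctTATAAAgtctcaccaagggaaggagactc
Krt84: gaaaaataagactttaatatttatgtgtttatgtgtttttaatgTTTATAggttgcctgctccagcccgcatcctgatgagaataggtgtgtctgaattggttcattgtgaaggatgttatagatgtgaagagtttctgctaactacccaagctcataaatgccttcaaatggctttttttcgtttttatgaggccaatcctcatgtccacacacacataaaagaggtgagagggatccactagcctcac
Krt73: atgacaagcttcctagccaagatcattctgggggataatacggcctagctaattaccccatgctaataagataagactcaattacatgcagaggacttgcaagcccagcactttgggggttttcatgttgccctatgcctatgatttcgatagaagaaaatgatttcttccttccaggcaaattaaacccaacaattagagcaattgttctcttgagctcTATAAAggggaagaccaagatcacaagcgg
Krt8: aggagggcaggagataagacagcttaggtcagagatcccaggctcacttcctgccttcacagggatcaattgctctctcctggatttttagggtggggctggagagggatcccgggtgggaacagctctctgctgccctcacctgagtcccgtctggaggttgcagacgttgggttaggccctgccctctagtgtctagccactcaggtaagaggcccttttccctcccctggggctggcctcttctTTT
Krt18: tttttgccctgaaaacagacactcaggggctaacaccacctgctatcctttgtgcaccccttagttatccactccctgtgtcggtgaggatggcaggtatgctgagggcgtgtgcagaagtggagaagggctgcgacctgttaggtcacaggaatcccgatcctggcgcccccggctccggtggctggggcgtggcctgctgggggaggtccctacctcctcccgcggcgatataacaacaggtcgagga

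Krt31 and Krt73 carried TATAAA on the sense strand, beginning 29 and 30 bases before the start. In Krt84 the match was on the other strand, 206 bases before the start. In Krt8 the letters straddle the annotated start, so only their first bases are in the run shown, and in Krt18 the window held no match. Krt18 had 17 CpG dinucleotides and 61.3% GC in its 300 bases, where Krt31 had 2 CpG and 46.3% GC, Krt84 had 3 and 42.7%, Krt73 had 4 and 43.7%, and Krt8 had 6 and 58%. None of the 5 windows held AGGNGGCNC, a core of the motif of CTCF, the DNA-binding protein known from loop anchors, on either strand. A match or its lack describes these letters alone.

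The type I cluster, 1037 kb on chromosome 11 from Krt222 to Krt42 (chr11:99232761-100269951), had loops over its middle and upper part and none over its lower part. It holds 27 keratins, 23 keratin-associated proteins and 15 other protein-coding genes, 14 of them with Gm names. Of 41 members with a known strand, 37 are read from the minus strand. It held 4 merged anchors, or 3.86 per Mb (exact 95% Poisson interval 1.05 to 9.87). The nearest anchor lay 1258 kb below the cluster, where a 70 kb loop ended, and 10.1 kb above it.

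The loop with the highest peak pixel value of the 15 covered the keratin-associated genes, on the largest pixel size, where pixel values run higher. It spanned 550 kb at 25 kb pixels, from chr11:99450001-99475000 to chr11:100000001-100025000, where Krt33a and Krt33b lie, a pair of type I hair keratins. Between its anchors lay Krt23, Krt39, Krt40 and all 23 keratin-associated genes of the cluster. Its peak score was 4.18, at percentile 62.8, while its peak pixel of 23.9 stood at percentile 98.5 of the 636 loops of 25 kb pixels. Among 182 loops of like span and the same pixel size the pixel stood at percentile 98.6 and the score at percentile 73.9.

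A second loop from the same lower anchor spanned 700 kb to chr11:100150001-100175000, with a peak score of 3.66 at percentile 41.7 and a peak pixel of 17.8 at percentile 81.4. It held 36 members from Krt23 to Krt19. The shared lower anchor lay between Krt20, the keratin of the intestinal lining, 11.8 kb away, and Krt23, 2.97 kb away, and touched no protein-coding gene. The upper anchor lay between Krt19, a keratin of ducts and simple epithelia, 4.08 kb away, and Krt9, the keratin of footpad epidermis, 11.8 kb away.

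The upper edge of the cluster held 2 overlapping loops. From Krt31, a type I hair keratin, a loop of 230 kb ran from chr11:100050001-100060000 to chr11:100280001-100290000, with a peak score of 4.02 at percentile 52.0. Its 11 members from Krt32 to Krt42 were the only protein-coding genes between its anchors. Among them were Krt15 and Krt14, keratins of the basal epidermis, at 14.1 and 28.2 kb from the nearest anchor. A loop of 125 kb at 5 kb pixels ran from chr11:100170001-100175000, inside the upper anchor of the 700 kb loop, to chr11:100295001-100300000. Its peak score of 6.19 was the highest of the cluster and ranked 242 of 1265, at percentile 80.9, and between its anchors lay Krt9, Krt14, Krt16, Krt17 and Krt42 and no other protein-coding gene. Krt16 and Krt17 are known from wounded epidermis and hair follicles.

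The lower 9 genes lay between the anchors of no loop. They are Krt222, Krt24, the inner root sheath keratins Krt25, Krt26, Krt27 and Krt28, Krt10 of the upper epidermis, Krt12 of the cornea, and Krt20. Krt10 lay 52.6 kb from the nearest anchor, and Krt222 lay 206 kb from it. Of the filament pairs, Krt1 lay inside 4 loops and Krt10 in none, Krt5 inside 3 and Krt14 in 2, and Krt8 and Krt18, which share a cluster, inside the same 2.

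**Figure D3:**
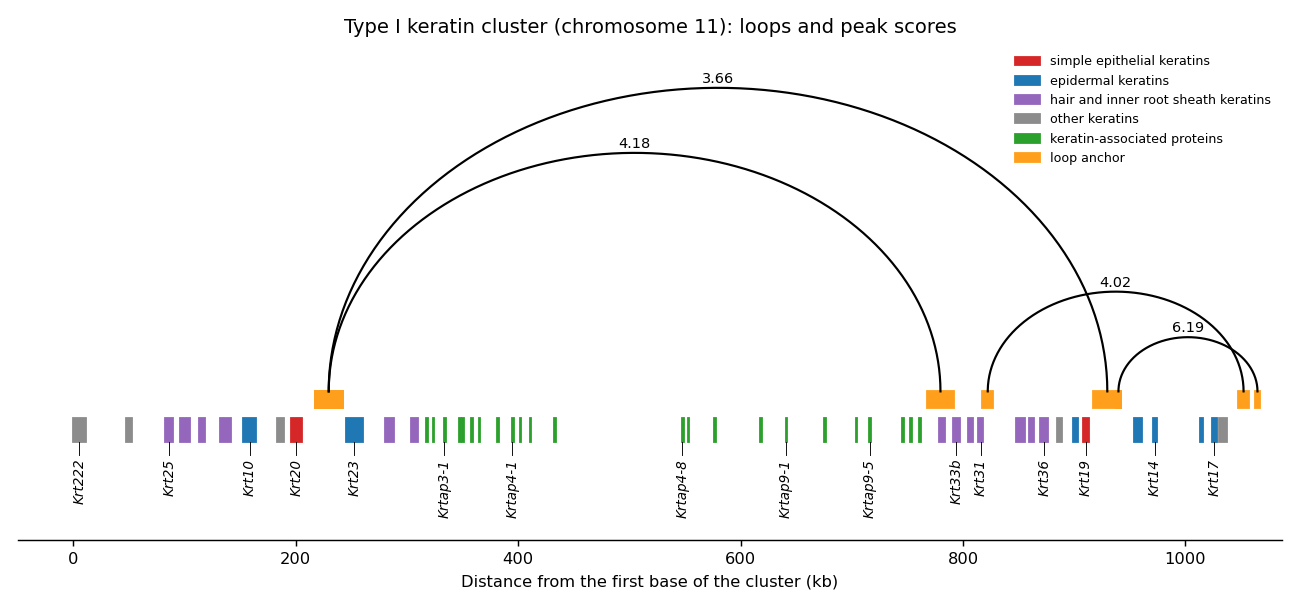
Loops of the type I keratin cluster on chromosome 11, with position in kb from the first base of the cluster on the horizontal axis, genes as boxes coloured by list, anchors as orange boxes and loops as arcs labelled with the peak score. The 23 keratin-associated genes lie under the loop of score 4.18, and the 9 genes to the left of its lower anchor lie under no loop.

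The 24 keratin-associated genes of chromosome 16 (chr16:88610709-89571183, 960.5 kb, Krtap24-1 to Krtap11-1), among them the glycine and tyrosine-rich Krtap6, Krtap8 and Krtap19 families, had a single anchor among them. That is 1.04 per Mb (exact 95% Poisson interval 0.0264 to 5.80). It began a loop of 170 kb, from chr16:89560001-89570000 to chr16:89730001-89740000, with a peak score of 3.14, the lowest of the 15 loops, at percentile 9.38 of its pixel size, and a peak pixel of 4.50 at percentile 4.11. The anchor ended 0.176 kb short of Krtap11-1, a sulphur-rich hair protein gene, which was the only protein-coding gene between the anchors. At 10 kb pixels, a gap of that size is finer than the position of the anchor. Besides its 24 members, the cluster holds 34 other protein-coding genes, 29 of them with Gm names.

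A loop of 2800 kb enclosed the cluster, from chr16:87450001-87475000 at an end of Usp16, a histone deubiquitinase gene, to chr16:90250001-90275000 overlapping Scaf4. It had a peak score of 4.20 at percentile 63.4, but at percentile 17.1 among 38 loops of like span and the same pixel size. It held 66 protein-coding genes, among them Tiam1 and Sod1. The nearest anchors outside the cluster lay 401 kb below, on a loop of 360 kb with a peak score of 3.85, and 159 kb above, on the 170 kb loop. The median distance of these 24 genes to an anchor was 523 kb, where that of the 23 keratin-associated genes of chromosome 11 was 115 kb.

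The 3 small groups held no anchor. The 5 Krtap5 genes of chromosome 7, ultra-high-sulphur hair proteins (chr7:142174532-142304503), lay between the anchors of no loop. Their nearest loop began 20.5 kb above them at Ifitm10 and ran 350 kb to Ins2, with a peak score of 4.11 at percentile 59.98 and a peak pixel of 21.1 at percentile 95.4. It held 7 protein-coding genes including Igf2, an imprinted growth factor gene, and no member. On the other side the nearest anchor lay 1365 kb away, at Zfp941. Among the Krtap5 genes lie 5 other protein-coding genes, all with Gm names.

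The 3 genes of chromosome 10 (chr10:77720586-77837251), Krtap12-1, Krtap10-4 and Krtap10-10, had no loop in, within 100 kb of or around them, and 12 other genes with Gm names share the region. The nearest anchors lay 211 kb below, on a loop of 225 kb with a peak score of 5.53, and 143 kb above, on a loop of 175 kb with a peak score of 3.72. Krtap28-13 on chromosome 1 (chr1:83060930-83061921) stood alone between the anchors of 2 loops. The narrower spanned 280 kb to an anchor 8.08 kb above the gene, with a peak score of 3.99 at percentile 50.4, and held also Agfg1 and Slc19a3. The wider spanned 1880 kb, with a peak score of 4.25 at percentile 61.7 but a peak pixel of 4.08 at percentile 1.74. Among 36 loops of like span and the same pixel size its score stood at percentile 31.9. A further loop of 195 kb ended 75.9 kb below the gene, with a peak score of 3.74 at percentile 9.76.

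The distance to the nearest anchor is given by list as a description, with no test between lists. The median was 11.8 kb for the 5 simple epithelial keratins, 23.9 kb for the 16 epidermal keratins, 31.9 kb for the 8 other keratins, 38.2 kb for the 24 hair and inner root sheath keratins and 153 kb for the 56 keratin-associated genes. Over all 109 members it was 75.1 kb (quartiles 20.9 and 159 kb), and over all protein-coding genes 59.0 kb (quartiles 12.8 and 209 kb). Among the simple epithelial keratins the order was Krt8 at 1.71 kb, Krt19 at 4.08 kb, Krt20 at 11.8 kb, Krt18 at 28.0 kb and Krt7 at 72.4 kb.

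For several members the nearer gene end lay outside an anchor by less than 5 kb, the smallest pixel size. Krtap11-1 lay 0.176 kb away, Krt2 0.689 kb, Krt82 1.22 kb, Krt78 1.62 kb, Krt8 1.71 kb, Krt23 2.97 kb and Krt19 4.08 kb. These 7 are the members that anchors widened by 5 kb on each side would add, which gives 12 of 109 members, where the share of all protein-coding genes rises to 16.5%.

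**Figure D4:**
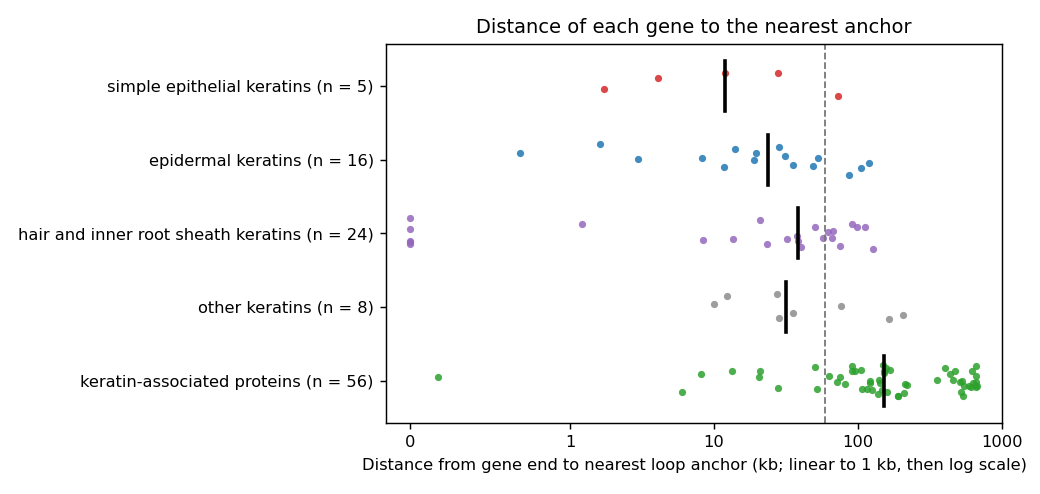
Distance in kb from the nearer gene end to the nearest loop anchor (linear to 1 kb, then log scale) for each member, by list, with the median of the list as a black bar and the median of all protein-coding genes, 59.0 kb, as a dashed line. The 5 points at 0 are hair and inner root sheath keratins, and the keratin-associated genes centre on 153 kb.

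The promoters of the members were poor in CpG and rich in TATAAA. In the 300 bases around the start (250 before and 50 after), the 87 members with a sequence had a median GC content of 44.7% and a median of 3 CpG, against 56.7% and 14 over 16457 protein-coding genes. The medians were 41.3% and 2 for 51 keratin-associated promoters, but 59.7% and 11.5 for 4 of simple epithelial keratins. TATAAA on either strand was in 61 of 87 windows (70.1%), where 13.5% of all windows held it. Between 40 and 20 bases before the start on the sense strand, a range chosen after the positions were seen, 44 members had it (50.6%), against 2.90%. By list, TATAAA on either strand anywhere in the window was in 42 of 51 keratin-associated promoters (82.4%), 14 of 18 of hair and inner root sheath keratins (77.8%), 1 of 9 of epidermal keratins and 2 of 4 of simple epithelial keratins. AGGNGGCNC on either strand was in 4 of 87 windows (4.60%), all of keratin-associated genes, against 9.75% of all windows. The shares of windows with TATAAA or AGGNGGCNC were not matched for GC content.

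Pooled over pixel sizes, the loops of the keratin clusters had a median span and peak score near those of all loops. The 13 loops with an anchor in or within 100 kb of a cluster had a median span of 280 kb (95% interval from order statistics 160 to 640 kb), where the median of all 4858 loops was 325 kb. Their median peak score was 4.02 (3.52 to 4.49), against 4.15 over all loops, and 3, 7 and 3 of them had pixels of 5, 10 and 25 kb. Over all loops these numbers were 1265, 2957 and 636, with median scores of 4.88, 3.98 and 3.85. The pooled medians are thus not matched for pixel size. Of the 15 loops, 9 had an anchor in a cluster, 4 of them both anchors and 4 a member's end at an anchor. Another 4 had an anchor within 100 kb but none inside, and 4 enclosed a cluster, of which 2 are counted in both classes.

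Together the clusters held 10 merged anchors, or 3.41 per Mb (exact 95% Poisson interval 1.64 to 6.28), close to the 3.48 per Mb of chromosomes 1 to 19. Members lay at 37.2 per Mb of cluster, and protein-coding genes at 8.46 per Mb of these chromosomes. Clusters run from first to last member, so a high density of members follows from the rule. The first value leaves out the other protein-coding genes of the clusters. The 59 epidermal differentiation genes, which encode proteins of the cornified layer and S100 proteins, had 3.36 anchors per Mb (1.35 to 6.93) and no gene end at an anchor (up to 5.08% by the limit of 3 counts). The 57 clustered protocadherins had 7.68 per Mb (3.09 to 15.8) and 10 genes at an anchor (17.5%, exact 95% interval 8.75 to 29.9%). The 39 Hox genes had 22.4 per Mb (11.2 to 39.996) and 10 genes at an anchor (25.6%, 13.04 to 42.1%). The interval for keratin clusters lies below that of the Hox clusters and overlaps those of the other two families.

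**Figure D5:**
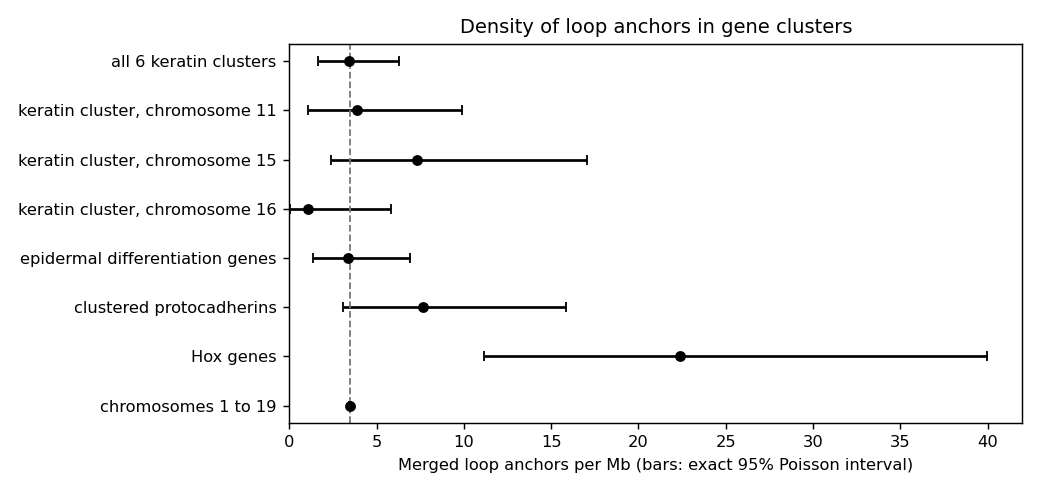
Merged loop anchors per Mb (points) with exact 95% Poisson intervals (bars, counting error only) for the keratin clusters, 3 other families of clustered genes and chromosomes 1 to 19, whose value of 3.48 is the dashed line. The interval of the 6 keratin clusters together, 1.64 to 6.28, holds that line, and that of the Hox genes, from 11.2, lies above it.

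Genes for the partners of keratins are scattered over many chromosomes. None of 25 listed genes, which encode desmosome and hemidesmosome proteins, plakins, transglutaminases, cornified envelope proteins, classical cadherins, the other filament proteins Vim and Des, and the epidermal regulator Trp63, had an end at one, which allows a share of up to 12% and so does not set them apart from the 9.19% of all protein-coding genes. By any overlap 5 did (20%, against 18.1% of all genes), and 13 (52%, against 33.0%) lay between the anchors of a loop. Their median distance to an anchor was 50.9 kb, against 59.0 kb over all genes. Vim, the filament protein of mesenchymal cells, lay 0.69 kb from an anchor, and Itgb4, the hemidesmosome integrin, lay 1.59 kb from one inside a loop of 80 kb. Jup, which encodes plakoglobin and neighbours the type I cluster, lay 68.9 kb from an anchor and inside no loop.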

How the data were processed

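Micro-C contacts of 2 siControl samples of V6.5 cells were deposited as 1 loop list, in mm10 coordinates. Per the submitters' processing notes, Juicer 1.5.6 was used. Not given in the sources used here are how loops were called, with which settings, and any pooling of samples, and column meanings were inferred from the values. The deposited peak scores and regional scores are the authors' own, the deposited probability-like value is a fraction, and the deposited peak pixel is a signal whose normalization is unknown. They were used only to describe loops within the list.

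Coordinates were made 1-based and genes taken from a RefSeq table of GRCm38.p6, the assembly mm10 names. Promoters were matched for 87 of 109 members. Overlaps were computed with Python 3.11.15, pandas 2.3.3 and SciPy 1.17.1, and the overlap code was tested on simulated data. Members and lists were chosen with earlier results of these data known. Named were members at anchors, loops in clusters, the nearest and enclosing loops, and the keratins of simple epithelia, basal and upper epidermis. With 1 list no test between groups or samples was possible. Alternatives were pixel size, score, anchor width, gene end, cluster gap and flank.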

Additional observations from a re-analysis of the deposited data

How the results depend on the processing

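Recomputed were the members at an anchor, the classes of loops, the anchors per Mb of cluster, and the median span and peak score. There were 52 alternatives in all, of which 42 gave values within 1.5 times the one reported. The counts of members between anchors, of single lists, of partners and of promoters were not recomputed. Anchors per Mb of cluster, 3.41 against 3.48 over chromosomes 1 to 19, changed side: 2.39 against 1.82 for loops above the median peak score, and 3.75 against 3.48 with pseudogene records. The count of members at an anchor (5) fell to 3 with 5 and 10 kb pixels only, which drops Krt33a and Krt33b (the share of all genes is then 7.32%), fell to 3 by gene start alone, where strand is known for 87 members, and rose to 12 with anchors widened by 5 kb, which also raised the loops with a member at an anchor from 4 to 7. Loops with both anchors in a cluster (4) came to 2 with 5 and 10 kb pixels only and to 2 when only loops scoring above the median for the pixel size were kept. Loops within 100 kb but not inside (4) came to 2 above the median peak score, to 2 above the median regional score and to 10 with a flank of 200 kb. Loops enclosing a cluster (4) came to 2 above the median regional score. The regional score and anchor midpoints were chosen after seeing the data. For counts that fell with a score limit, fewer loops enter by construction. No paired analysis was possible because replicates have no values of their own in the deposited list, so neither sample could be left out. Read depth is unknown, so a loop not listed is not shown to be absent.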
